A study of Mus musculus with 2 samples.

Results

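Myb binding was described at 10 genes of lymphoid recombination and commitment, which fall into recombination genes (Rag1, Rag2 and Dntt), B-lineage factors (Pax5, Ebf1, Foxo1 and Bcl11a) and T-lineage factors (Bcl11b, Tcf7 and Lef1). A Myb ChIP-Seq peak was counted at a gene when its summit lay in the gene body or within 50 kb of it in the GENCODE vM21 annotation of mm10, which found 32 of the 25793 peaks in the list. The cells were Lin– bone marrow cells, the fraction that is left after depletion of cells with mature lineage markers, from WT mice, with a stated purity above 80%. Strain, age, sex and the number of mice pooled were not given in the labels. There were 2 samples, a precipitate with an antibody against Myb and one with nonspecific rabbit IgG, both from WT cells, with 1 library each. In the study's methods WT stands for Ep300 fl/fl mice without Cre, which received poly(I:C) like the deleted strains, and whether the mice of these libraries had been injected was not stated for this assay. The peaks were called on the Myb library against the IgG library, so there was no replicate error and no test, and all intervals below cover counting error only. A peak list holds no expression values, so the cell type could not be checked against its markers, and the share of lymphoid progenitors among the Lin– cells was not measured.

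Lymphocytes assemble their antigen receptor genes by V(D)J recombination. The Rag1 and Rag2 proteins together cut the DNA at recombination signals, and Dntt, the terminal deoxynucleotidyl transferase, adds untemplated nucleotides at the joints. Ebf1 and Pax5 specify and then fix the B cell fate, Foxo1 acts with them and activates the Rag genes, and Bcl11a is needed for early B cell development and represses fetal globin genes in red cells. Tcf7 (which encodes TCF-1) and Lef1 are related HMG-box factors that act early in the T lineage, and Bcl11b marks T cell commitment. Myb itself is a regulator of hematopoietic progenitors and of both lymphoid lineages, and its consensus was searched on both strands in 4 forms, which are AACGG or AACTG with a C or a T before it (for example TAACTG). The form CAACTG also has the outline CANNTG of an E-box.

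At least 1 peak was found at 9 of the 10 genes, whereas 68.7% of the 21938 protein-coding genes had one by the same rule. The peaks were spread unevenly. Bcl11a alone had 14, or 43.8% of the total, followed by Dntt with 6, Foxo1 and Lef1 with 3 each, Ebf1 and Tcf7 with 2 each and Pax5 with 1. Rag1 and Rag2 lie side by side and shared a single peak, and Bcl11b had none in the list. The median was 2 peaks per gene, the same as the median over all protein-coding genes, for which the quartiles were 0 and 5. The windows searched, gene body and 50 kb on each side, ran from 107.8 kb (Rag2) to 490.8 kb (Ebf1). The median window over all protein-coding genes was 117.4 kb. Per Mb of window, the median was 11.7 peaks at the 10 genes, against 15.2. The counts and shares in this paragraph were not adjusted for window length. A peak within 3 kb of an annotated start site was present at 4 of the 10 genes (Rag2, Dntt, Foxo1 and Bcl11a), against 39.9% of all protein-coding genes. A peak inside the gene body was present at 5 of the 10 (Dntt, Ebf1, Foxo1, Bcl11a and Lef1), against 35.4%. These shares were close to the background, so the genes as a list did not stand out by the presence of Myb peaks, and the differences lay between single genes.

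**Figure D1:**
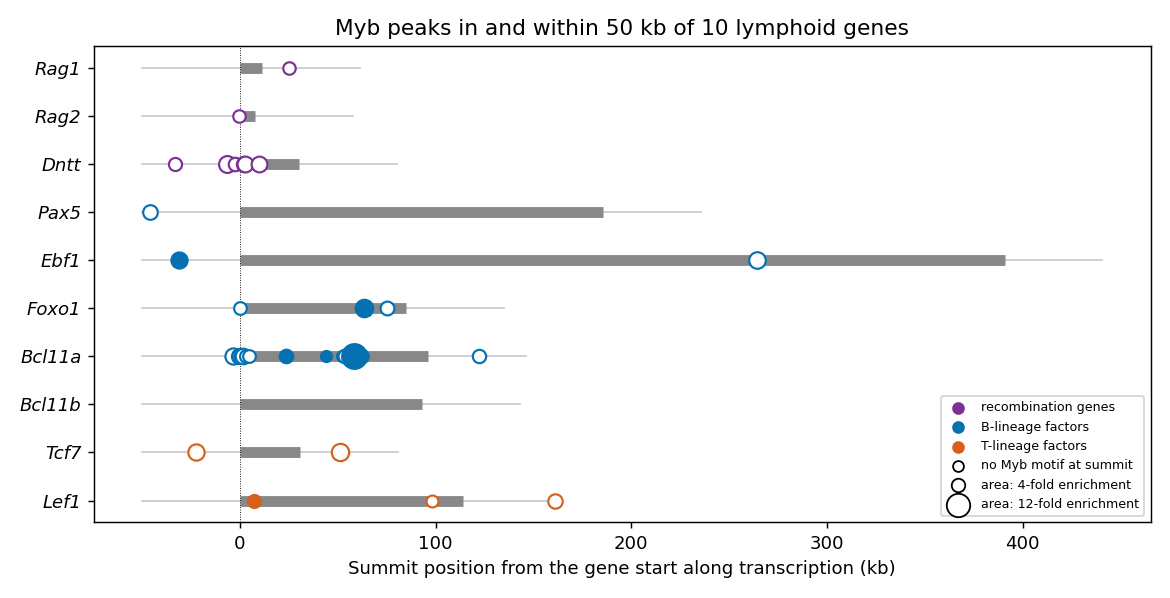
Position of each Myb summit from the gene start, in kb along the direction of transcription, for the 10 genes. Grey bars are gene bodies, thin lines the window of 50 kb on each side, circle area the fold enrichment, and filled circles have a Myb motif within 50 bp of the summit. Bcl11a carries 14 of the peaks, Bcl11b none, and the shared Rag peak is drawn at both Rag genes.

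To show what lay under the summits, the summit base and the 50 bases on each side of it are given on the + strand of mm10, with Myb motifs in capitals. The first set holds every peak at these genes with a Myb motif within 50 bp of the summit and is shown to let the letters around each match be read. Offsets in kb are from the gene start, along transcription.
Bcl11a +58.3 kb, chr11:24136264-24136364: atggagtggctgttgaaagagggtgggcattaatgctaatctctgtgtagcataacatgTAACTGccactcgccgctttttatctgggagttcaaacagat
Bcl11a +23.4 kb, chr11:24101428-24101528: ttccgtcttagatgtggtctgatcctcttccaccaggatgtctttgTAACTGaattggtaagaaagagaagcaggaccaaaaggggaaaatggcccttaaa
Bcl11a +43.8 kb, chr11:24121787-24121887: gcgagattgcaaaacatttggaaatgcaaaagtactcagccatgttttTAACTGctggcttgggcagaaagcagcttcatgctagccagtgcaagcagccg
Bcl11a +61.9 kb, chr11:24139942-24140042: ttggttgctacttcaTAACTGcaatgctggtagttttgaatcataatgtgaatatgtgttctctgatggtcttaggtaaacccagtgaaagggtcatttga
Foxo1 +63.6 kb, chr3:52331850-52331950: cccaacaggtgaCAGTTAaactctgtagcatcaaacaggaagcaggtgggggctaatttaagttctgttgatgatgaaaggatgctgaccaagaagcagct
Ebf1 -31.0 kb, chr11:44586230-44586330: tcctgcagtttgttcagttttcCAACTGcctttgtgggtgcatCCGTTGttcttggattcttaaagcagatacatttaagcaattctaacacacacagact
Lef1 +7.34 kb, chr3:131117763-131117863: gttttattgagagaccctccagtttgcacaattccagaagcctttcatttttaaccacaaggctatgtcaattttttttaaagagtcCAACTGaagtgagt

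The second set shows the strongest peak of Rag2, Dntt, Pax5, Tcf7 and Lef1 and the Dntt peak nearest to its start, none of which held one of the 4 Myb forms.
Rag2 -0.271 kb (and Rag1 +25.1 kb), chr2:101624397-101624497: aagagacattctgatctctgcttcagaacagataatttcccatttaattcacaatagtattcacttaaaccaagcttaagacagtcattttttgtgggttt
Dntt -6.75 kb, chr19:41022476-41022576: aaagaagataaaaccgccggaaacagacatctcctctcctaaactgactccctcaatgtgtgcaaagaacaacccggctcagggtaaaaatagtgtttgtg
Dntt +1.94 kb, chr19:41031167-41031267: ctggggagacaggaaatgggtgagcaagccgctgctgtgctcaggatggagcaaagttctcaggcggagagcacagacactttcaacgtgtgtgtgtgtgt
Pax5 -46.0 kb, chr4:44756419-44756519: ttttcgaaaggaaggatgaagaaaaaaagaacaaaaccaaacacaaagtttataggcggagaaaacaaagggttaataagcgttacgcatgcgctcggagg
Tcf7 +51.2 kb, chr11:52231794-52231894: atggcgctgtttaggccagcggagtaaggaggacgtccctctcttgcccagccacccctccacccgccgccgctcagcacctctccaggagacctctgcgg
Lef1 +160.8 kb, chr3:131271223-131271323: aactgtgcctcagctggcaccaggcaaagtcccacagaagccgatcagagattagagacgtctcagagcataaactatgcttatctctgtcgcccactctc

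Among the recombination genes, Dntt carried nearly all of the Myb peaks. Fold enrichment compares the scaled Myb reads stacked over a summit with a background from the IgG library. Where that background was low, a genome-wide level of 1.46 reads stood in its place. In the whole list the median fold enrichment was 4.51, with quartiles of 3.73 and 5.95. The strongest Dntt peak, at chr19:41021942-41022712, lay 6.75 kb upstream of the gene start, with a fold enrichment of 6.24 and 22 reads (exact Poisson 95% interval, 13.8 to 33.3). Nearer to the start was a peak 2.68 kb upstream, at 4.0-fold on 12 reads. Dntt had a pair of peaks in intron 1, 1.94 kb and 2.74 kb downstream of its start, with fold enrichments of 5.06 on 25 reads and 5.46 on 20 reads. Another peak in intron 3, 9.93 kb downstream, had 5.43-fold enrichment on 25 reads. These 5 peaks fell within 16.7 kb and were strung from upstream of the gene into intron 3, with read intervals that all overlapped, so they were not ranked. The remaining Dntt peak, 33.3 kb upstream at 3.75-fold on 13 reads, lay 1475 bp from a start site of the neighboring gene Blnk, a B cell receptor adaptor, and was counted at Dntt by distance alone. The −log10 q-value of the 6 peaks ranged from 2.64 to 7.63.

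The shared Rag peak was weak. Its summit, at chr2:101624292-101624508, lay 271 bp upstream of the Rag2 start and 25.1 kb from the Rag1 start, beyond the 3′ end of Rag1 and inside the overlapping gene B230118H07Rik. It had a fold enrichment of 3.41 on 12 reads (6.20 to 20.96), with a −log10 q-value of 1.87, and 84.0% of all peaks in the list had a higher fold enrichment. Neither Rag gene had a peak in its body. The next peak outside the window was 83.4 kb from the body of Rag1 and 100.3 kb from that of Rag2. The summit window held a GATA motif and an Ikaros motif, 16 bp and 9 bp from the summit, and had a GC content of 32.7%, against a median of 48.5% over all summit windows.

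Of the B-lineage factors, Pax5 and Ebf1 had few peaks for their length. Pax5, a gene of 185.7 kb, had no peak in its body and 1 in its window, at chr4:44755973-44756599, with 4.69-fold enrichment on 25 reads (16.2 to 36.9). This summit was 46.0 kb upstream of Pax5 and 99 bp from a start site of Zcchc7, in whose body it lay. No peak in the Pax5 window thus had Pax5 as its nearest protein-coding start. Ebf1, the longest of the 10 genes at 390.8 kb, had 1 peak in its body, with 6.03-fold enrichment on 18 reads (10.7 to 28.4). The other Ebf1 peak, at chr11:44586092-44586561, lay 31.0 kb upstream of the gene and 37 bp from the start of the noncoding gene 4930597A21Rik, with 5.72-fold enrichment on 17 reads. Its summit window held Myb motifs in opposite orientations, CAACTG 23 bp and CCGTTG 2 bp from the summit, and it was the only one of the 32 windows with more than 1 Myb motif.

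Foxo1 had 3 peaks, all in the gene body. The first lay in the untranslated part of exon 1, 241 bp downstream of the start, at chr3:52268231-52268728, with 3.52-fold enrichment on 17 reads and a GC content of 72.3% in the summit window. The others were in intron 1. The stronger, 63.6 kb downstream of the start at chr3:52331632-52332067, had 6.70-fold enrichment on 21 reads (13 to 32.1) and a −log10 q-value of 8.66. It held a Myb motif 33 bp from the summit and E-box motifs of the form CACCTG at 3 bp and 40 bp. The peak 75.2 kb downstream had 4.16-fold enrichment, also on 21 reads, and its local background of 3.12 reads was higher than the 1.56 reads of the stronger peak.

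Bcl11a stood apart from the other 9 genes in the number of peaks and in the strength of its strongest peak. Its 14 peaks placed it at rank 447 among the 21938 protein-coding genes, of which 2.60% had 14 or more, and no other of the 10 genes had more than 6. Around the start, 6 peaks lay within 5 kb, from 3.62 kb upstream to 4.75 kb downstream, with fold enrichments of 3.52 to 5.72 on 13 to 27 reads. The summit 3.62 kb upstream lay inside the protein-coding gene A830031A19Rik, 622 bp from its start. Intron 2 held 7 peaks. The strongest, at chr11:24135845-24137461 and 58.3 kb downstream of the start, had a fold enrichment of 13.4 on 51 reads (38.0 to 67.1) and a −log10 q-value of 32.2, which placed it at rank 350 in the list. Its read interval lay above those of 12 of the other Bcl11a peaks and met only that of the peak 3.34 kb downstream, with 27 reads (17.8 to 39.3), where the local background was also higher, at 5.0 reads against 2.0. This peak was the only one at the 10 genes with at least 10-fold enrichment, and 11.8% of all protein-coding genes had such a peak by the same rule.

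The strong peak of Bcl11a lay in a cluster of 5 peaks between 52.3 kb and 61.9 kb downstream of the start, all in intron 2. The others in this cluster had fold enrichments of 2.66 on 16 reads, 4.23 on 16 reads, 2.87 on 10 reads and 4.65 on 17 reads. Further upstream in the same intron were peaks at 23.4 kb, with 3.99-fold enrichment on 13 reads, and at 43.8 kb, with 2.69-fold on 8 reads. The strong peak thus had weaker peaks on both sides, and the fold enrichments at 52.3 kb, 60.5 kb and 43.8 kb were below the lower quartile of the list. The nearest annotated start to the strong summit was another Bcl11a start, 6065 bp away, and the summit at 61.9 kb was 2387 bp from it. A last peak, 26.3 kb beyond the 3′ end of the gene, had 3.90-fold enrichment and was nearest to the noncoding gene Gm12066. The q-value was above 0.05 at 3 of the 14 peaks, those at 43.8 kb, 52.3 kb and 60.5 kb, and at none of the peaks of the other 9 genes.

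In intron 2 of Bcl11a, 4 of the 7 summit windows held a Myb motif. All 4 motifs were of the same form, TAACTG, and on the + strand, which is the coding strand of the gene. They lay over the summit at 23.4 kb and 43.8 kb, 9 bp from it at 58.3 kb and 30 bp from it at 61.9 kb. The strong peak also held a GATA motif, 29 bp from the summit on the same side as the Myb motif. The form TAACTG, singled out after its matches had been seen, was present in 6.13% of all summit windows in the list. The window at 61.9 kb was 91.1% repeat sequence, while that of the strong peak held none. None of the 6 peaks around the start held a Myb motif.

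**Figure D2:**
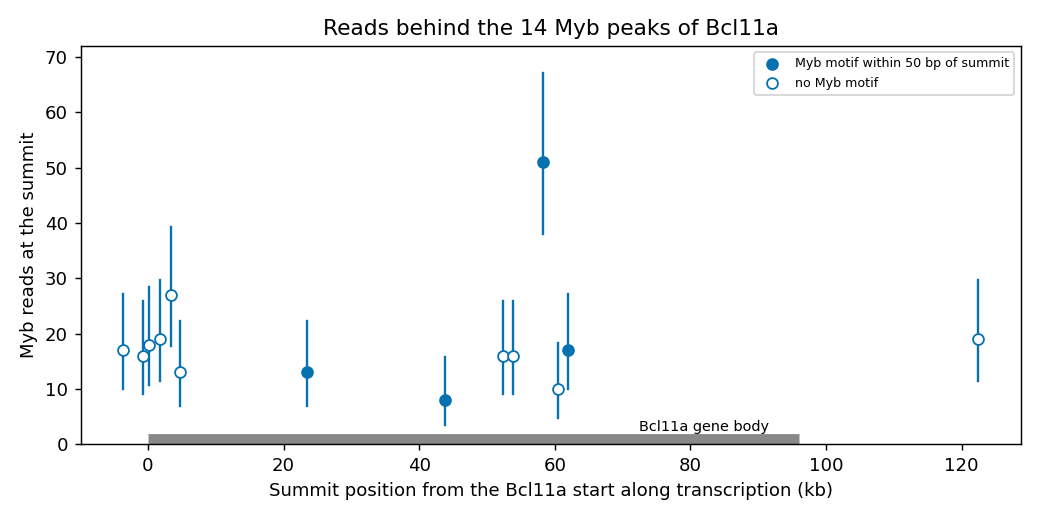
Myb reads at each of the 14 Bcl11a summits against the position from the gene start in kb, with exact Poisson 95% intervals as vertical lines. The summit at 58.3 kb, with 51 reads, stands above the others, which have 8 to 27 reads, and filled points mark the 4 summits with a Myb motif.

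The T-lineage factors had 5 peaks in all. Bcl11b, of 93.2 kb, had none in its body or within 50 kb, and its nearest listed peak was 176.0 kb away, while 12 peaks lay within 1 Mb. Since the list holds only regions that passed the authors' calling, this gives no upper limit on binding at Bcl11b. By the same rule, 31.3% of all protein-coding genes had no peak. Tcf7 had no peak in its body and 2 in its flanks. The stronger, at chr11:52231536-52232124 with 6.60-fold enrichment on 33 reads (22.7 to 46.3), was 151 bp from a start site of the neighboring gene Skp1a, a subunit of ubiquitin ligases. The other, at chr11:52305020-52305616, lay 22.5 kb upstream of Tcf7, with 5.82-fold enrichment on 21 reads (13 to 32.1), and Tcf7 was its nearest start. Its window held 2 RUNX motifs, one of them over the summit, and a GATA motif 42 bp away.

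Lef1 had 3 peaks, of which 2 were below the lower quartile of fold enrichment in the list and 1 was near its median. The peak in intron 3, 7.34 kb downstream of the start, had 3.70-fold enrichment on 11 reads (5.49 to 19.7), with a Myb motif 37 bp and a RUNX motif 3 bp from the summit. The peak in intron 11, 98.2 kb downstream, had 3.11-fold enrichment on 13 reads and also held a RUNX motif. The last, at 4.55-fold on 15 reads, was 751 bp from a start site of Hadh, an enzyme of fatty acid oxidation, and was counted at Lef1 by distance. The −log10 q-value was below 4 at all 3 Lef1 peaks, against a median of 4.44 in the whole list.

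**Figure D3:**
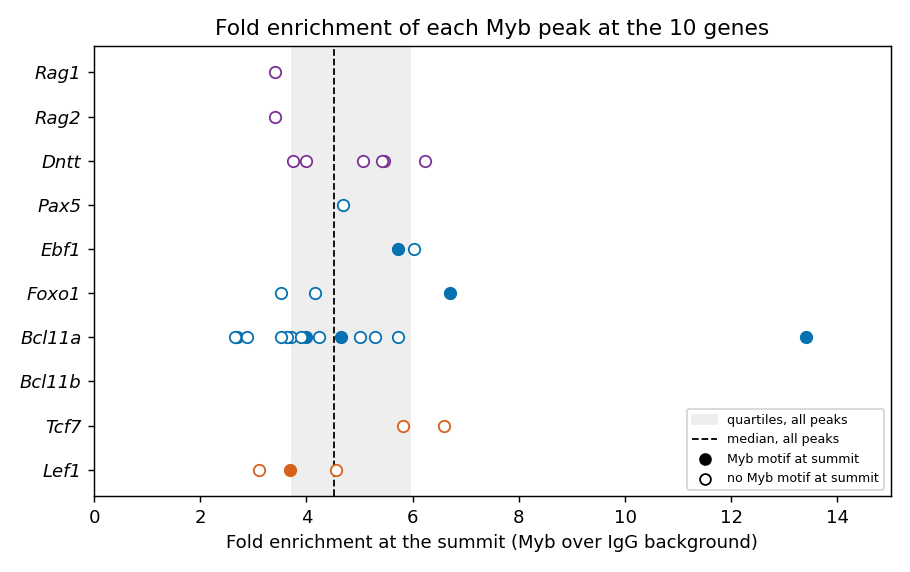
Fold enrichment of each of the 32 peaks, by gene, with the median of all 25793 peaks as a dashed line and their quartiles as a grey band. Only the Bcl11a peak at 13.4-fold lies far outside the band, and Bcl11b has no point.

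The rule reached beyond the genes themselves in several cases. Of the 32 summits, 20 lay in the body of one of the 10 genes and 25 had one of them as the nearest protein-coding start. The other 7 summits were nearest to a neighbor, such as Blnk, Zcchc7, A830031A19Rik, Skp1a and Hadh above. The outermost summits counted were those near Hadh, 46.9 kb from the body of Lef1, and near Zcchc7, 46.0 kb from that of Pax5, and the closest that was left out was 68.8 kb from the body of Bcl11a. Whether a peak acts on the gene it was counted at was not tested.

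Compared by group, the B-lineage factors had 20 peaks, the recombination genes 7 and the T-lineage factors 5. Windows differ in length, so the peaks were also divided by the length of the windows, with overlaps counted once. The recombination genes had 27.4 peaks per Mb (11.0 to 56.6), the B-lineage factors 17.3 (10.6 to 26.7) and the T-lineage factors 9.30 (3.02 to 21.7), with intervals that overlapped. The order of the groups by number and by density was not the same, and each group leaned on a single gene or a neighbor. Without Bcl11a the B-lineage factors had 6 peaks, or 6.24 per Mb (2.29 to 13.6). With only the peaks nearest to one of the genes, the T-lineage factors had 2 peaks and the recombination genes 6. The windows differed in gene content too, with 27.4 protein-coding starts per Mb at the recombination genes, 5.18 at the B-lineage factors and 11.2 at the T-lineage factors. Outside promoters, that is, more than 3 kb from any annotated start site, the densities were 7.84, 7.78 and 5.58 per Mb, again with intervals that overlapped. The median fold enrichment was 5.06 at the recombination genes, 4.20 at the B-lineage factors and 4.55 at the T-lineage factors, on medians of 20, 17 and 15 reads. A difference between the 3 groups in density was therefore not detectable with these few peaks and genes.

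With peaks counted as independent, some single genes differed in density beyond their counting intervals. The genes compared here were picked after their values were seen. Peaks of Bcl11a and Dntt lay in clusters, which the intervals do not cover. Bcl11a had 71.4 peaks per Mb (39.0 to 119.8), above the intervals of Pax5, with 3.50 (0.0886 to 19.5), and Ebf1, with 4.08 (0.494 to 14.7). Dntt, with 46.1 (16.9 to 100.3), was above Ebf1 as well, and its interval overlapped those of Bcl11a and the rest. The median window over all protein-coding genes had 15.2 peaks per Mb, and 6 of the 10 genes lay below it. By peak density, Bcl11a was at percentile 91.4 of all protein-coding genes and Dntt at 80.6, while Pax5 and Ebf1 were at 32.2 and 32.5.

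**Figure D4:**
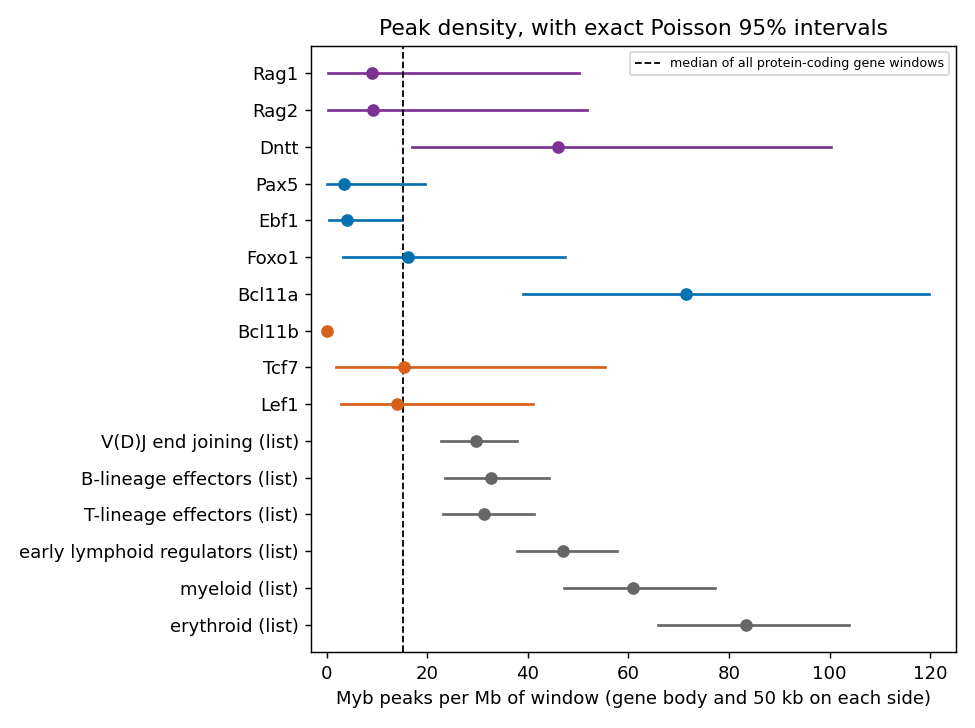
Myb peaks per Mb of window for each of the 10 genes and for 6 lists of other genes, with exact Poisson 95% intervals and the median of all protein-coding windows (15.2) as a dashed line. Bcl11a (71.4) and Dntt (46.1) are the highest of the 10 genes, Bcl11b (0) has no interval drawn, and the erythroid list (83.3) is the highest of the lists.

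The peaks at the 10 genes resembled the rest of the list in strength and shape. Their median fold enrichment was 4.39, against 4.51 for all peaks, and 16 of the 32 lay above the median of the list. Their median width was 517 bp, from 217 to 1617 bp, against a median of 577 bp for all peaks, and none was wider than 2 kb. Fewer than 20 reads covered 21 of the 32 summits, or 65.6%, against 56.1% in the whole list. Promoters held 18 of the summits, or 56.3%, close to the 57.6% of the whole list.

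A Myb motif lay within 50 bp of the summit at 7 of the 32 peaks, or 21.9% (exact binomial interval, 9.28% to 39.97%), against 16.7% of all peaks. The interval included the share of the whole list, and with a window of 100 bp the order turned, to 25.0% against 30.0%. Without Bcl11a the motif was at 3 of 18 peaks, or 16.7%, the share of the whole list. By group, the motif was found at 6 of the 20 peaks of the B-lineage factors, at 1 of the 5 of the T-lineage factors and at 0 of the 7 of the recombination genes, which allows a share of up to 41.0%. All 6 Dntt windows and the Rag window thus held none of the 4 forms. In windows of the same length 500 bp to either side of the 32 summits, the motif was present in 16 of 64, or 25.0%, so its share was not higher at these summits than in their flanks, whereas over the whole list the flank share was 10.5%. By group, it was present in 6 of 14 flank windows at the recombination genes, 9 of 40 at the B-lineage factors and 1 of 10 at the T-lineage factors.

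Motifs of other hematopoietic factors were counted in the same windows on both strands. RUNX motifs (TGTGGT and TGCGGT) were present at 5 of the 32 peaks, or 15.6% (5.28% to 32.8%), against 12.2% of all peaks. By group they were at 3 of the 5 peaks of the T-lineage factors (14.7% to 94.7%). They were at 1 of the 20 peaks of the B-lineage factors and 1 of the 7 of the recombination genes. Of the 9 kinds of motif, only Myb and RUNX are split by group here. GATA motifs (AGATAA and TGATAA) were present at 7, or 21.9% (9.28% to 39.97%), against 13.8%. The E-box forms CAGCTG and CACCTG, bound by E proteins, were present at 3 peaks (9.38%, against 13.6%), the ETS form GGAAGT at 2 (6.25%, against 10.5%) and the Ikaros form TGGGAA at 3 (9.38%, against 8.80%). Some of the 10 genes encode factors with motifs of their own. The EBF form CCCNNGGG was found at 1 peak, downstream of Bcl11a, and in 3.57% of all peaks. The FOXO form GTAAACA was found at 1 peak, over the summit in intron 3 of Dntt, and in 1.34% of all peaks. The TCF/LEF forms ATCAAAG and TTCAAAG were found at none of the 32, which allows a share of up to 10.9%, and in 3.31% of all peaks. In each of these families the interval at the 10 genes included the share of the whole list, and 15 of the 32 windows held none of the 9 kinds of motif.

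**Figure D5:**
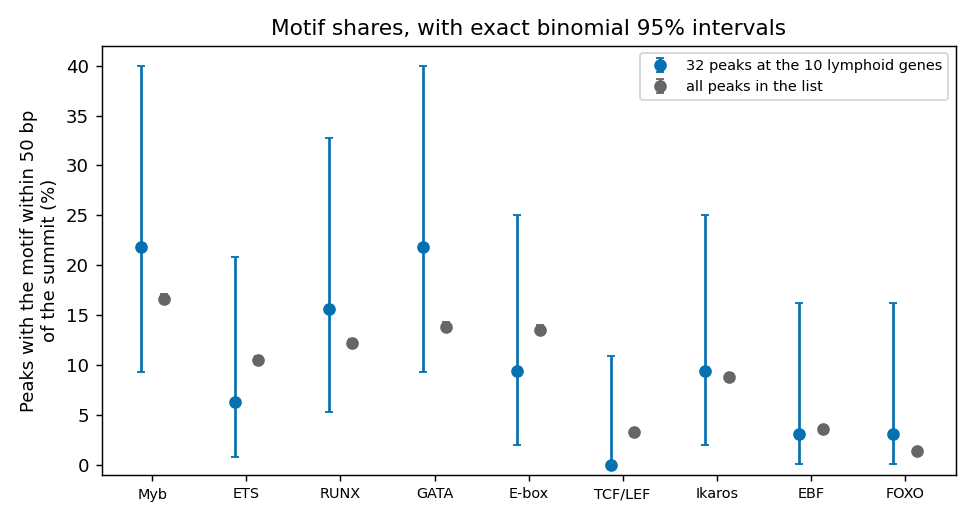
Share of peaks with each motif within 50 bp of the summit, in percent, for the 32 peaks at the 10 genes and for all 25793 peaks, with exact binomial 95% intervals. The wide intervals of the 32 peaks include the share of the whole list for all 9 kinds of motif.

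Other genes of the lymphoid program were set beside these 10, in lists drawn up by function but with earlier results of these data known. For all protein-coding genes the shares to read these lists against were 39.9% with a promoter peak, 68.7% with a peak in the window and 11.8% with a peak of at least 10-fold enrichment. Among the 11 genes of the V(D)J end joining list, which assist Rag cleavage or join the cut ends, 10 had a promoter peak, and their windows held 29.6 peaks per Mb (22.8 to 37.9). The highest fold enrichments there were at Hmgb1 (10.6) and Hmgb2 (10.1), chromatin proteins that assist Rag cleavage, and at Polm (8.15), a polymerase of the joining step. Among 12 B-lineage effectors, 5 had a promoter peak, near the background, and 11 a peak in the window, with the highest at the neighbors Vpreb1 and Igll1, which encode the surrogate light chain and shared a peak of 10.7-fold, and at Ms4a1 (7.90), the B cell antigen CD20. Among 12 T-lineage effectors, 6 had a promoter peak, with the highest at Runx3 (13.3), a RUNX factor, and at the CD3 chain genes Cd3g (7.89) and Cd3e (7.003). These highest values can lie anywhere in a gene's window, and Ms4a1, Cd3g and Cd3e had no promoter peak. A peak inside the gene body was present at 1 of the 12 B-lineage effectors and 7 of the 12 T-lineage effectors. It was present at 9 of the 11 end joining genes, against 35.4% of all protein-coding genes. The windows of the B-lineage and T-lineage effectors had 32.8 (23.6 to 44.3) and 31.2 (23.2 to 41.2) peaks per Mb. The B-lineage effectors include Blnk, the neighbor of Dntt. Its window held 8 peaks and took in the Dntt peaks, with the strongest at 6.24-fold, so these were counted on both sides of the comparison. These 3 lists lay in gene-rich windows, with 21.6 protein-coding starts per Mb for V(D)J end joining, 39.0 for the B-lineage effectors and 28.1 for the T-lineage effectors, against 9.74 at the 10 genes. Outside promoters their densities were 8.93 (5.38 to 13.95), 11.7 (6.55 to 19.3) and 6.24 (2.99 to 11.5) per Mb, with intervals that overlapped the 7.18 (3.92 to 12.0) of the 10 genes.

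Early lymphoid regulators, which act in progenitors before commitment, had more peaks per Mb, with a median fold enrichment of 4.78, against 4.39 at the 10 genes and 4.51 in the whole list. Of these 12 genes, 4 had a peak of at least 10-fold enrichment, against 1 of the 10 recombination and commitment genes and 11.8% of all protein-coding genes, so that the 10 genes were near the background. Irf4 had no listed peak and Il7r and Id2 had 2 each, named here after their values were seen, and the highest fold enrichments were at Id3 (19.0), an inhibitor of E proteins, Flt3 (17.0), a receptor of early progenitors, and Nfil3 (16.1), a factor of innate lymphoid cells. Their density was 47.1 per Mb (37.9 to 57.7), above the 16.4 (11.2 to 23.2) of the 10 genes. Among the genes of other marrow lineages, the 10 of the myeloid list had 60.8 per Mb (47.2 to 77.3) and the 8 of the erythroid list 83.3 (65.8 to 103.9), with the highest fold enrichments at Cebpe (17.4), a factor of granulocytes, and Nfe2 (17.0), a factor of megakaryocytes and erythroid cells. Single genes weighed on these lists too. Flt3 had 19 of the 92 early lymphoid peaks, Elane 20 of the 67 myeloid peaks and Nfe2 19 of the 78 erythroid peaks. The intervals do not cover such clustering. A promoter peak was present at all 18 of these myeloid and erythroid genes and at 9 of the 12 early lymphoid regulators. It was present at 4 of the 10 recombination and commitment genes, a share close to the 39.9% of all protein-coding genes. The windows differed in gene content, with 9.74 protein-coding starts per Mb at the 10 genes, 11.8 at the early lymphoid regulators, 32.7 at the myeloid list and 38.4 at the erythroid list. Outside promoters the densities were 7.18 per Mb (3.92 to 12.0) at the 10 genes, 22.0 (15.9 to 29.6) at the early lymphoid regulators, 22.7 (14.7 to 33.5) at the myeloid list and 32.03 (21.6 to 45.7) at the erythroid list, so the intervals of these 3 lists lay above that of the 10 genes there too. As the lists were chosen with earlier results of these data known, these differences describe the chosen genes only. The part of gene content and of the cell mixture in them was not tested.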

How the data were processed

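Groups were taken from the sample titles, with 1 Myb and 1 IgG library of Lin– cells, so no test between groups was possible. The analysis used the authors' narrow peak list. Per the labels and the methods, single-end reads were trimmed with cutadapt (1.15), aligned to mm10 with BWA (0.7.13) and freed of duplicates with Picard, and MACS2 (2.1.1.20160309) called peaks against IgG, kept by overlap between pseudo-replicates, which are splits of the same reads, after filters on mapping quality and blacklisted regions. The methods give a q-value below 0.05 for the calling, whereas the q-value was above 0.05 at 7.24% of the peaks in the list. In the deposited list, fold enrichment is a ratio at the summit, and its significance is deposited as the −log10 of a p-value and of a q-value. The deposited score repeats the p-value and was not used. Whole reads at each summit were worked back out of fold and p-value together, with a scale of 0.769 for the Myb pileup, which gave whole reads within 0.002 of the −log10 p-value in 100% of peaks. The reads are given before scaling, so reads and background as printed do not divide to the fold enrichment. The total depth is not given in the list, and the median summit had 18 reads. PCR copies and neighboring peaks are not independent, so the exact Poisson and Clopper-Pearson 95% intervals cover counting error only.

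Gene bodies were those of GENCODE vM21, sequence came from the GRCm38 reference, and positions are 1-based. Offsets are from the outermost annotated start of a gene, and introns were numbered in its longest coding transcript over the summit. The recovery of reads and the motif search were tested on simulated data. All 10 genes were named, each with its strongest peak, its peak nearest to the start and its count, and the 3 highest fold enrichments of each lymphoid list, with neighbors that share a peak named together. For the myeloid and erythroid lists only the gene with the highest fold enrichment and the gene with the most peaks were named. The windows with a Myb motif were added for display after the matches had been seen. The genes and lists were chosen with earlier results of these data known. Sequence in untranslated exons is not shown, and the sequence and position of 1 Ebf1 peak are not reported here. Alternatives were thresholds on the q-value, other windows, assignment by any base or nearest start, other forms and windows of the motif and, added after seeing the data, a q-value of at most 0.05 and leaving out Bcl11a. Python (3.11.15), pandas (2.3.3), SciPy (1.17.1), pysam (0.24.0) and samtools (1.23.1) were used.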

Additional observations from a re-analysis of the deposited data

How the results depend on the processing

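Of 50 recomputed values, 36 stayed within their interval or within 1.5 times their count and 14 moved. When peaks had to reach 5 on the −log10 q-value scale, the 10 genes had 13 peaks, or 6.67 per Mb, of which 4 were at recombination genes, 7 at B-lineage factors and 2 at T-lineage factors, as fewer peaks enter by construction. Without Bcl11a there were 18 peaks, or 10.3 per Mb, and 6 at B-lineage factors. The count of the T-lineage factors was the least stable, with 3 peaks from a −log10 q-value of 2 upward, 2 in windows of 3 kb and 10 kb, 8 in a window of 100 kb and 2 by the nearest protein-coding start. The Myb motif share was 46.9% with the looser AACNG, against 54.3% of all peaks, and it was 25.0% both in the window of 100 bp, against 30.0%, and with C or T before AACNG, against 29.7%, so the direction against the whole list turned with these settings, and the cause was not tested. By −log10 q-value, 8 of the 9 genes with a peak had the same strongest peak, the exception being Dntt, where the intron 3 peak came first, and both Ebf1 peaks tied. No paired analysis was possible because each group had 1 library. Depth limits the single peaks, most of which had fewer than 20 reads.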

Other observations

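Repeat sequence made up more than 50% of the summit window at 3 of the 32 peaks, or 9.38%, against 6.12% of all peaks. These were the Bcl11a peak near the start at 0.0950 kb, with 81.2%, the Bcl11a peak at 61.9 kb, with 91.1%, and the Ebf1 peak in the gene body. Reads in repeats are harder to place, and the effect on these peaks was not tested. GC content of the 32 windows ranged from 31.7% to 76.2% at the Bcl11a peak 1.82 kb downstream of the start.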
